A study of Homo sapiens with 6 samples.

Results

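The ribosome biogenesis and nucleolar genes described here are the 56 of the 12982 genes in the deposited table whose symbol starts with UTP, NOP, NOL, RRP or POLR1, apart from NOL3, or is one of FBL, DKC1, NCL, NPM1, BOP1, PES1, WDR12, BYSL, RRS1, NIP7, NAT10, TSR1, PPAN, MRTO4 and GNL3. Expression was measured by mRNA sequencing in SW480, an established human colorectal adenocarcinoma line, with the genotype label WT in every library. The cells received either the solvent DMSO or MPM-1, a small fluorescent molecule that targets mitochondria and is called WT4 in the sample labels, in both cases for 24 h. There were 3 libraries per treatment, and the labels do not say whether these came from separate cultures, so the p-values measure only the spread between these libraries. The dose of MPM-1 is not given in the sources used here, and SW480 is a single line.

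Ribosomes are built in the nucleolus. RNA polymerase I transcribes one long precursor RNA, small nucleolar ribonucleoproteins (snoRNPs) modify its bases and riboses, and assembly factors fold and cut it into the RNAs of the small and the large subunit. Growing tumor cells make many ribosomes, and the genes of these factors are known targets of the transcription factor MYC, which with MAX binds the sequence CACGTG, the E-box. By their known roles the 56 genes were placed in 6 groups, namely 5 genes of RNA polymerase I, 6 of snoRNPs, 24 of small subunit assembly, 17 of large subunit assembly, 3 other nucleolar genes and NOL4L, which entered by its symbol alone.

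After MPM-1, 9 of the 56 genes were higher and 23 were lower at an adjusted p-value under 0.05 (edgeR's quasi-likelihood test, Benjamini-Hochberg adjustment over all 12982 genes), and 24 were not called. Among all genes tested, 27.7% were higher and 28.8% were lower by the same rule. The nucleolar genes had a smaller share of higher genes (16.1%) and a larger share of lower genes (41.1%) than the table as a whole, and their share called in either direction, 57.1%, was near the 56.5% of all genes. Their median log2 fold change was -0.18, against -0.026 for all genes, with a range from -1.17 for NOP58 to 0.90 for UTP4. Without DMSO library 2 the lower genes numbered 15 and the higher ones 7, against 23.7% and 23.3% of all genes. With scaling by library size alone there were 5 higher and 31 lower, against 19.9% and 37.5% of all genes, whose median was then -0.18. Fewer cells in a growing state and less RNA per cell cannot be told apart in such bulk libraries.

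Under a stricter rule, an adjusted p-value under 0.01 and at least a 2-fold change, 3 genes were lower (NOP58, FBL and MRTO4) and 0 were higher. By that rule 8.75% of all genes were lower and 5.58% were higher. The 2 treatments did not overlap in any library for 38 of the 56 genes (67.9%) and for 64.3% of all genes. In 13 of the 38 all MPM-1 libraries lay above those of DMSO, and in 25 below. The 38 included all 32 called genes and 6 that were not called (NOP53, NOL4L, NPM1, POLR1E, TSR1 and RRP36).

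**Figure D1:**
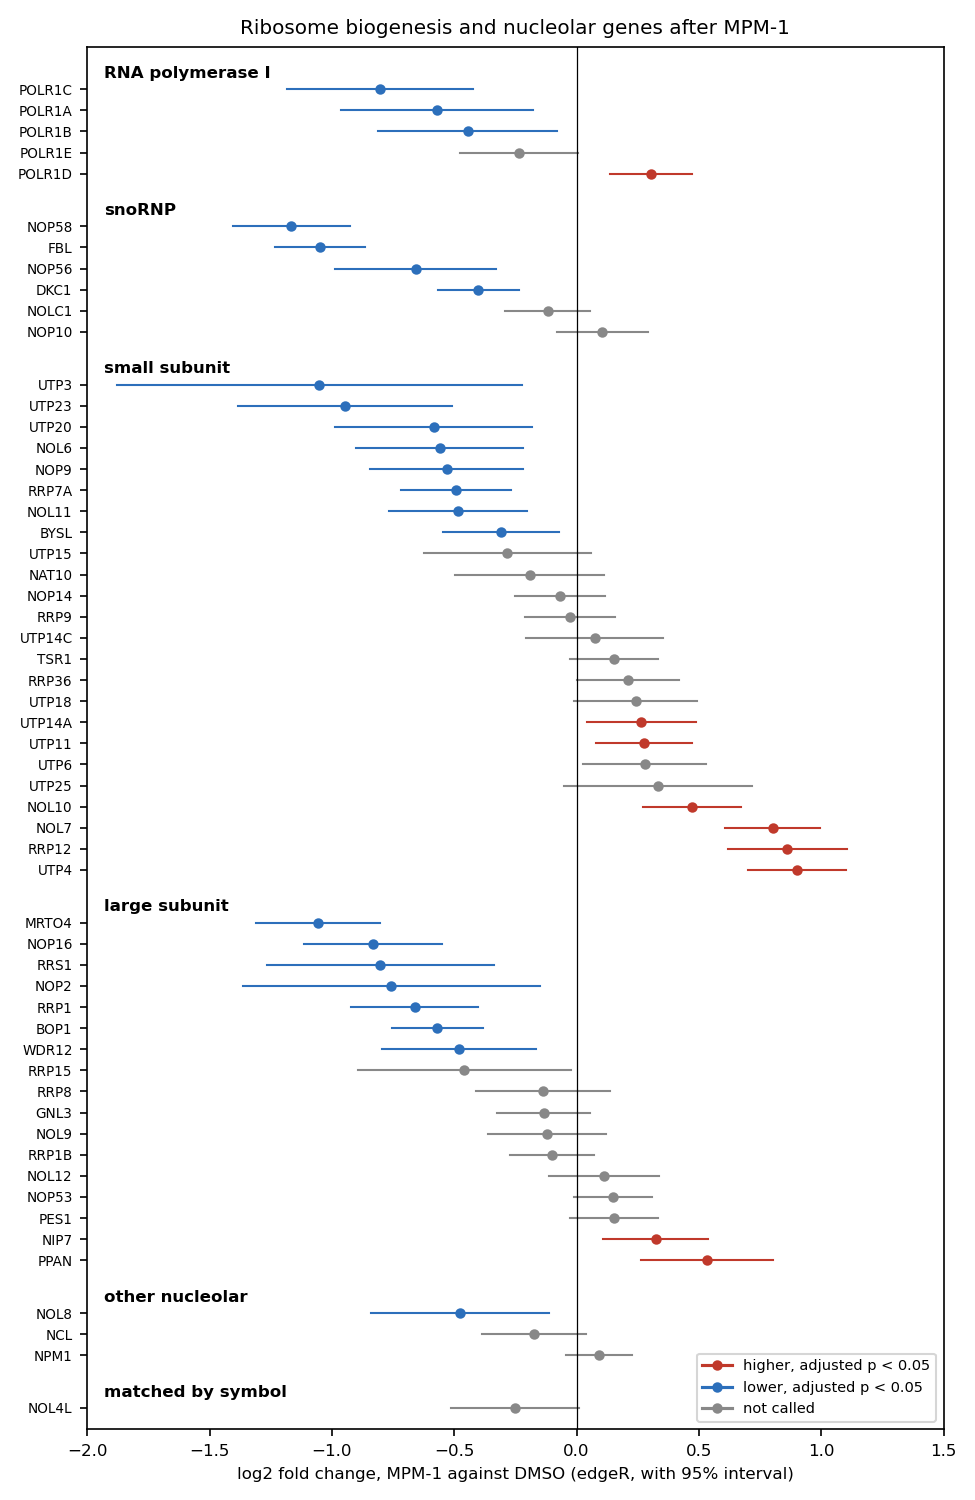
Log2 fold change of each of the 56 genes (x axis, MPM-1 against DMSO, from edgeR) by role (y axis), with points for the estimates and lines for the 95% intervals. The snoRNP group lies mostly left of 0, from -1.17 to 0.10, while the small subunit group reaches from -1.05 for UTP3 to 0.90 for UTP4.

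By group, the snoRNP and RNA polymerase I genes had the lowest medians in the main test. The group counts stand beside 28.8% lower and 27.7% higher among all genes tested. Of the 6 snoRNP genes 4 were lower and 0 higher (median log2 fold change -0.53), and of the 5 RNA polymerase I genes 3 were lower and 1 higher (median -0.45). Of the 17 large subunit genes 7 were lower and 2 higher (median -0.14). With scaling by library size alone their median was -0.29, against -0.59 for RNA polymerase I. On the log2(FPKM + 1) scale it was -0.41, below the -0.38 of RNA polymerase I, and on log2(FPKM + 0.1) -0.45, above its -0.61. Of the 24 small subunit genes 8 were lower (33.3%), 6 higher (25%) and 10 not called, shares near those of all genes. Their median was 0.02, but -0.13 with scaling by library size alone and -0.12 for FPKM on the log2(FPKM + 1) scale. Whether these groups differ from each other was not tested.

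The library totals ranged from 32095456 to 40269820 counts with DMSO and from 31733667 to 35403841 with MPM-1, and the lowest count of any of the 56 genes in a library was 154. Transcripts of the mitochondrial genome took 8.28% to 9.11% of the counts with DMSO and 1.95% to 2.35% with MPM-1. With those transcripts left out of the scaling, 9 nucleolar genes were again higher and 23 lower. The epithelial markers EPCAM, KRT8, KRT18, KRT19, CDH1, CDX1, CDX2 and VIL1 were all in the table, but not at even levels. CDX2, CDX1 and VIL1 fell (log2 fold changes -2.20, -0.98 and -0.88), KRT18, KRT19, CDH1 and KRT8 rose (0.89, 0.89, 0.82 and 0.42), all with an adjusted p under 0.05 in edgeR, and EPCAM was not called. Their part in the nucleolar results was not tested. Of 8 markers of other cell types, PTPRC, CD3E, PECAM1, COL1A2 and ALB had no row, COL1A1 and PDGFRB had group means under 0.5 FPKM, and CD68 rose from 37.2 to 71.2 FPKM (adjusted p = 0.000165 for its counts, edgeR). Library 1 of MPM-1 held the lowest of the 3 MPM-1 values in 17 of the 23 lower nucleolar genes. That share was larger than the 46.4% it had among the 3740 lower genes of the table. Without that library, 13 of the 56 genes were higher and 19 lower, against 26.2% and 26.2% of all genes.

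Promoter sequences (250 bases before to 50 after the annotated start, RefSeq on GRCh38.p14) were at hand for 47 of the 56 genes. The missing ones are BOP1, NOL10, NOLC1, NOP58, POLR1E, RRP12, RRP1B, RRS1 and UTP23. The letters CACGTG, which read the same on both strands, stood in 17 of the 47 promoters (36.2%), in 10.3% of the 9595 promoters matched to genes of the table and in 7.43% of all 27305 promoters. They occurred in 3 of 7 promoters of higher genes, 7 of 19 of lower genes and 7 of 21 of genes not called, so holders were found in all 3 classes. The stretches around the match are shown for 3 higher and 3 lower genes, with the match in capitals, on GRCh38.p14.
UTP4, chr16:69132621-69132650, plus strand: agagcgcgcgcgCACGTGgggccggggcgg
NOL7, chr6:13615174-13615203, plus strand: gcctgcgctggcCACGTGgaaagaaacacg
UTP14A, chrX:129905914-129905940, plus strand: accttgggcCACGTGgaaaccaggggc
FBL, chr19:39846356-39846385, minus strand: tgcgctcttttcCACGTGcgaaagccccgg
MRTO4, chr1:19251807-19251836, plus strand: cgtcttccgccgCACGTGgattcagcgcga
NOP2, chr12:6568242-6568268, minus strand: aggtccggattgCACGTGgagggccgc

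Counted from the annotated start as position 1, with no position 0, the match began at -16 in UTP4, -149 in NOL7 and -241 in UTP14A, the 3 higher genes that hold it. It began at 7 in FBL, 15 in MRTO4 and 36 in NOP2, and at positions from -10 to 29 in the other lower genes that hold it, namely UTP20, NOL6, NOL8 and BYSL. The 7 holders that were not called are NAT10, NOP14, RRP9, NOP10, PES1, UTP18 and UTP25. CCGGAAGT, read by ETS factors and searched on both strands, stood in 4 of the 47 promoters (8.51%, against 9.18% of the promoters of the table), and no match of it overlapped one of CACGTG. The NRF1 motif stood in 3 of the 47 (6.38%, against 2.36% of the promoters of the table), and so did a palindrome with CGCG at its center (6.38% against 0.948%), so CACGTG was not alone in a larger share here. A match is a string of letters and says nothing of binding in these cells.

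RNA polymerase I is a complex of many subunits, of which POLR1A and POLR1B form the catalytic center. POLR1A stood at 14.6, 20.4 and 17.5 CPM with DMSO and 9.62, 12.1 and 13.7 CPM with MPM-1 (CPM, counts after TMM scaling for library size). It fell (log2 fold change -0.57, standard error 0.17, adjusted p = 0.0193, edgeR with Benjamini-Hochberg adjustment), and the highest MPM-1 library lay just under the lowest DMSO library. POLR1B, at 30.2, 33.9 and 32.7 CPM with DMSO and 17.1, 27.2 and 26.7 CPM with MPM-1, was lower as well (log2 fold change -0.45, standard error 0.16, adjusted p = 0.0402 in the same test). The calls of both were lost when single libraries were left out, with fold changes from -0.68 to -0.43 for POLR1A and from -0.53 to -0.24 for POLR1B.

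POLR1C and POLR1D are shared by RNA polymerases I and III, where their products form a dimer, and they moved in opposite directions. POLR1C (ENSG00000171453, chromosome 6, 43509702 to 43562419, GRCh38) stood at 45.1, 46.7 and 51.1 CPM with DMSO and 19.6, 34.0 and 28.2 CPM with MPM-1. All MPM-1 libraries lay below all DMSO libraries, with library 1 of MPM-1 the lowest (log2 fold change -0.80, standard error 0.17, adjusted p = 0.00290, edgeR). POLR1D (ENSG00000186184, chromosome 13, 27620742 to 27744237) stood at 212, 200.4 and 217 CPM with DMSO and 273, 245 and 259 CPM with MPM-1, without overlap in the other direction (log2 fold change 0.30, standard error 0.074, adjusted p = 0.00633, edgeR). The rise of POLR1D was not called with scaling by library size alone or for FPKM, where it was 0.12 at the lowest. POLR1E, a subunit of the dissociable heterodimer named after its value was seen, was not called (log2 fold change -0.24, standard error 0.11, adjusted p = 0.0865, edgeR), with a 95% interval from -0.48 to 0.00433.

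Other RNA polymerase I genes were read from a list of the pathway, which holds 11 of them, 1 higher, 4 lower and 6 not called. Of all genes tested, 27.7% were higher and 28.8% lower. The median log2 fold change of the 11 was -0.015, near the -0.026 of all genes. Those named next were chosen after their values were seen. The subunit genes that the table lists under older symbols, CD3EAP and TWISTNB, fell by log2 fold changes of -0.86 and -0.53 (adjusted p = 0.0228 and 0.00317, edgeR), and ZNRD1 was not called (-0.07, adjusted p = 0.650). UBTF, which holds rDNA open for transcription, fell from 36.3 ± 4.97 to 20.6 ± 1.12 CPM (SD, n = 3, log2 fold change -0.82, standard error 0.12, adjusted p = 0.000300, edgeR). TAF1D, a part of the promoter selectivity factor SL1, rose from 115 ± 2.43 to 187 ± 16.5 CPM (log2 fold change 0.69, standard error 0.083, adjusted p = 0.000104, edgeR). TAF1A, TAF1B and TAF1C, the other parts of SL1 on the list, were not called (0.12, 0.18 and 0.29, adjusted p = 0.600, 0.351 and 0.0535, edgeR). RRN3, which recruits the polymerase to SL1, was not called either (0.05, adjusted p = 0.622).

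**Figure D2:**
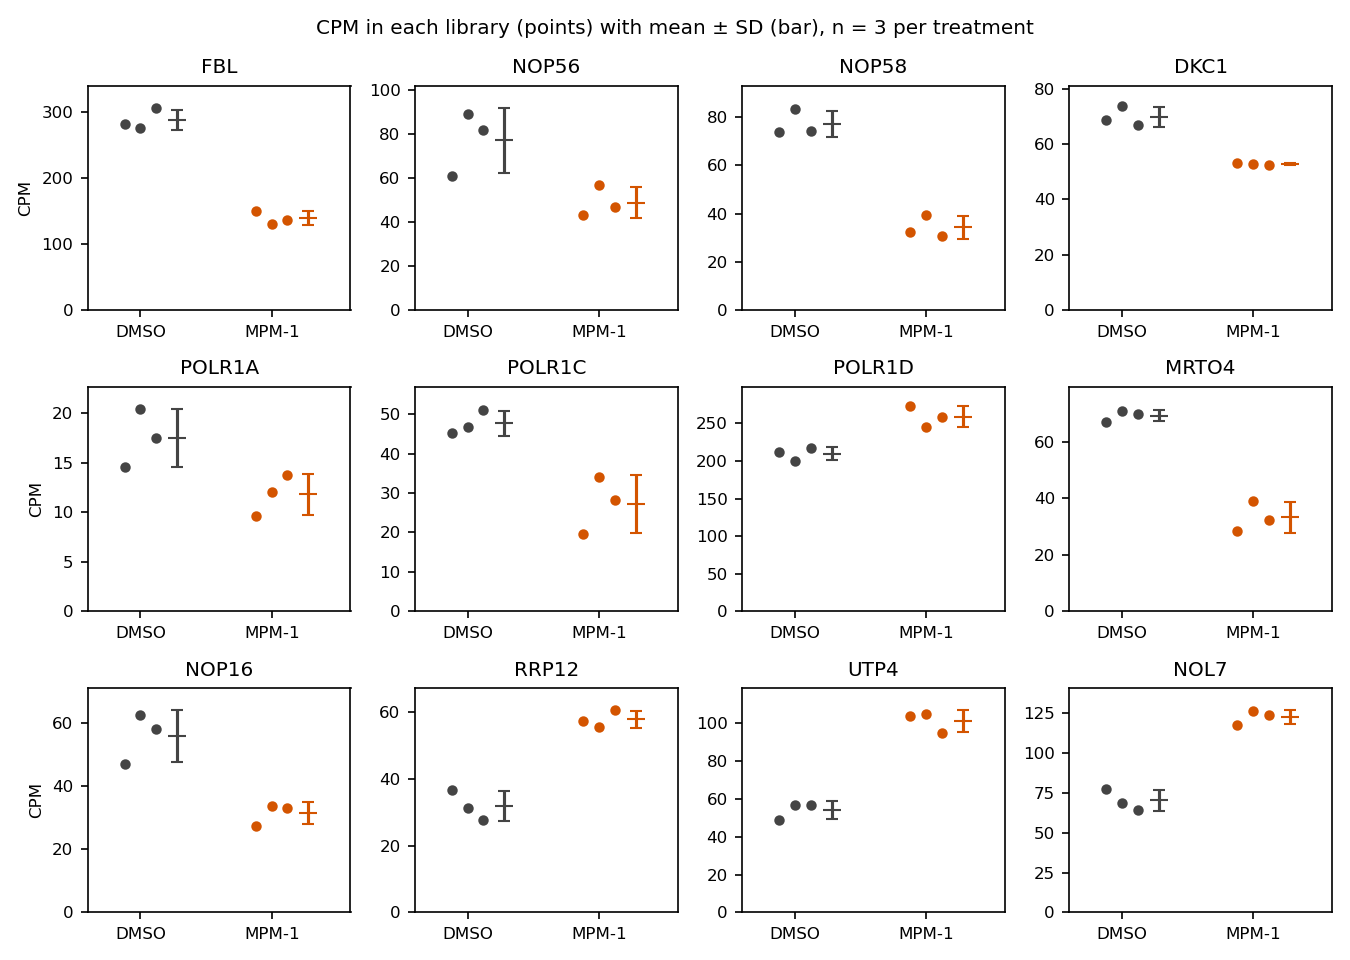
CPM (y axis, from 0) of 12 of the genes in each of the 3 DMSO and 3 MPM-1 libraries (points), with mean ± SD beside them. The treatments do not overlap in any of these 12 genes, and POLR1D, RRP12, UTP4 and NOL7 are the ones with higher values after MPM-1.

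The box C/D snoRNP, which methylates riboses of the ribosomal RNA, includes 2 of the 3 genes that were lower by the stricter rule. NOP58 (ENSG00000055044, chromosome 2, 202265716 to 202303666), one of its paired core proteins, stood at 73.6, 83.3 and 74.4 CPM with DMSO and 32.6, 39.6 and 30.9 CPM with MPM-1. The highest MPM-1 library was well under the lowest DMSO library (log2 fold change -1.17, standard error 0.11, adjusted p = 2.14e-05, edgeR). FBL (ENSG00000105202, chromosome 19, 39834458 to 39846414), the methyltransferase fibrillarin, stood at 283, 277 and 306 CPM with DMSO and 151, 130.4 and 137 CPM with MPM-1. Its treatments did not overlap either (log2 fold change -1.05, standard error 0.083, adjusted p = 8.94e-06, edgeR).

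NOP56, the partner of NOP58 in the same core, stood at 60.8, 89.0 and 81.6 CPM with DMSO and 43.3, 56.7 and 46.7 CPM with MPM-1. It fell by less (log2 fold change -0.66, standard error 0.15, adjusted p = 0.00404, edgeR), and its DMSO library 1 was well under the other DMSO libraries. The fourth core protein is encoded by SNU13, outside the 56 genes, and SNU13, named after its value was seen, rose from 207 ± 19.7 to 257 ± 7.70 CPM (log2 fold change 0.31, standard error 0.084, adjusted p = 0.0103, edgeR). NUFIP1, ZNHIT6 and ZNHIT3, snoRNP genes of the pathway list, were not called (log2 fold changes -0.41, -0.29 and -0.09, adjusted p = 0.0540, 0.0593 and 0.512, edgeR). They were named after their values were seen. The AAA+ helicases that load the core of the complex are RUVBL1 and RUVBL2. RUVBL1, one of the 3 largest falls of the pathway list, went from 108 ± 9.48 to 52.9 ± 4.46 CPM (log2 fold change -1.03, standard error 0.095, adjusted p = 2.21e-05, edgeR), and RUVBL2, named after its value was seen, from 192 ± 7.31 to 109 ± 5.00 CPM (log2 fold change -0.82, standard error 0.073, adjusted p = 1.94e-05, edgeR).

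The box H/ACA snoRNP turns uridines into pseudouridines. Its enzyme dyskerin, encoded by DKC1, stood at 68.8, 73.8 and 66.9 CPM with DMSO and 53.3, 52.8 and 52.5 CPM with MPM-1. The MPM-1 libraries were close together and below all DMSO libraries (log2 fold change -0.40, standard error 0.074, adjusted p = 0.00130, edgeR). NOP10, its smallest partner and one of the 5 genes with the highest FPKM, was not called, at 132, 115 and 137 CPM with DMSO and 136, 142 and 136 CPM with MPM-1 (log2 fold change 0.10, standard error 0.083, adjusted p = 0.308, edgeR). The other partners, NHP2 and GAR1, both fell (log2 fold changes -0.52 and -0.49, adjusted p = 0.000320 and 0.0121). NOLC1, which escorts snoRNPs, was not called, with a 95% interval of its log2 fold change from -0.29 to 0.06. DKC1, NHP2, GAR1 and NOLC1 were named after their values were seen. Over the 10 snoRNP genes of the pathway list outside the 56, 6 were lower and 1 was higher, against 28.8% and 27.7% of all genes.

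Because FPKM (fragments per length of transcript and depth of library) is scaled by length, genes can be set side by side within a library. The pairs given here were chosen after their values were seen, so they are given without a test. The FPKM ratio of NOP58 to NOP56 was 1.20, 0.930 and 0.897 with DMSO and 0.775, 0.692 and 0.666 with MPM-1, all lower after MPM-1. The ratio of FBL to NOP58 was 6.76, 5.90 and 7.29 with DMSO and 8.30, 5.88 and 7.79 with MPM-1, with the treatments overlapping. The ratio of DKC1 to NOP10 was 0.108, 0.135 and 0.103 with DMSO and 0.0822, 0.0770 and 0.0815 with MPM-1, again all lower after MPM-1. For POLR1C to POLR1D the ratio was 0.195, 0.213 and 0.213 with DMSO and 0.0652, 0.128 and 0.104 with MPM-1, a difference of -1.12 on the log2 scale, with library 1 of MPM-1 the lowest.

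**Figure D3:**
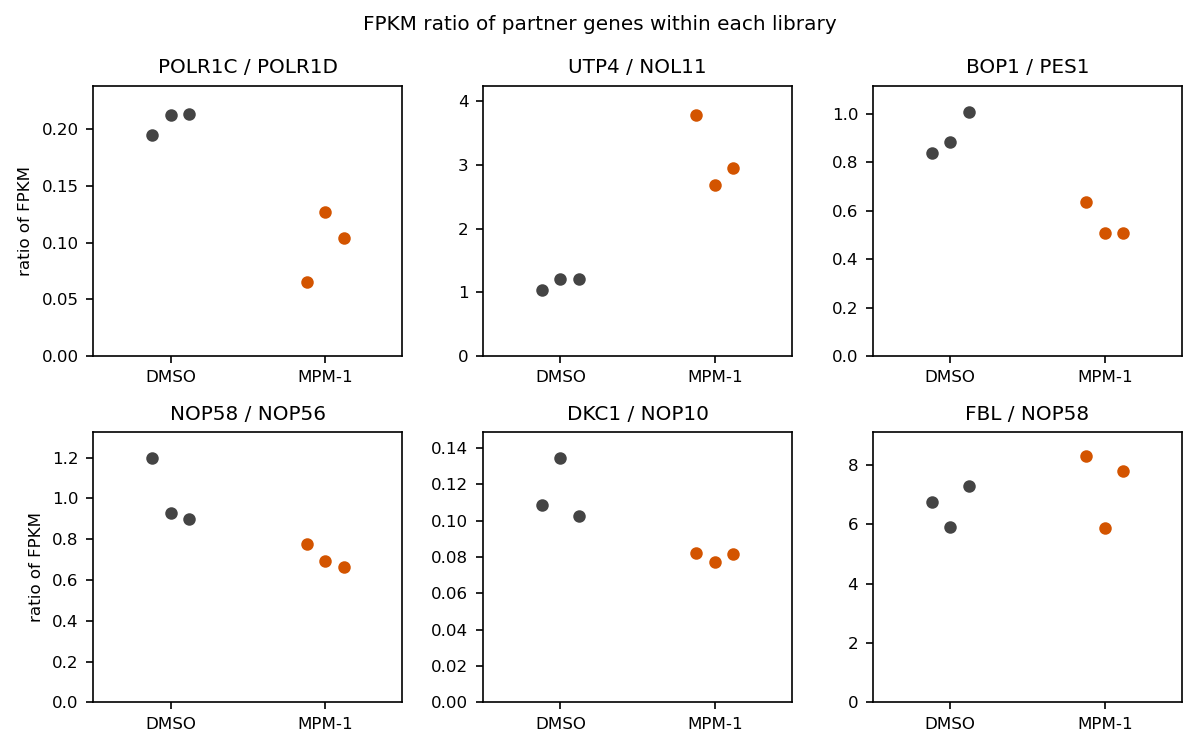
Ratio of the FPKM values of 6 pairs of genes within each library (y axis, from 0), with 1 point per library and 3 libraries per treatment. The pairs were chosen after their values were seen. The ratios do not overlap between treatments in 5 pairs, and FBL to NOP58 overlaps, from 5.90 to 7.29 with DMSO and from 5.88 to 8.30 with MPM-1.

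Among the genes of small subunit assembly, the rises were led by UTP4, RRP12 and NOL7. UTP4 (ENSG00000141076, chromosome 16, 69131291 to 69231130), also known as CIRH1A, encodes a subunit of the UTPA complex, which binds the nascent precursor first. It stood at 48.6, 56.9 and 56.7 CPM with DMSO and 104, 105 and 94.5 CPM with MPM-1. Its lowest MPM-1 value was above every DMSO value (log2 fold change 0.90, standard error 0.088, adjusted p = 3.13e-05, edgeR).

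RRP12 (ENSG00000052749, chromosome 10, 97356358 to 97426076) encodes a repeat protein needed for export of pre-ribosomes from the nucleus. It stood at 36.8, 31.2 and 27.7 CPM with DMSO and 57.5, 55.7 and 60.6 CPM with MPM-1. Its MPM-1 libraries were close together, and the treatments were well apart (log2 fold change 0.86, standard error 0.11, adjusted p = 0.000142, edgeR). NOL7 (ENSG00000225921, chromosome 6, 13615327 to 13632739), a factor of the early small subunit precursor, stood at 77.8, 68.8 and 64.5 CPM with DMSO and 117, 126 and 124 CPM with MPM-1, likewise without overlap (log2 fold change 0.80, standard error 0.087, adjusted p = 5.57e-05, edgeR). NOL7 shares 18.6% of its exonic bases with RANBP9 on the opposite strand, which was itself higher (log2 fold change 0.47, adjusted p = 0.00167, edgeR), and whether the counting used strand is not given in the sources used here. The other higher genes were NOL10, UTP11 and UTP14A, with log2 fold changes of 0.47, 0.28 and 0.26. These rises were not called for FPKM, and those of UTP11 and UTP14A were also lost with scaling by library size alone and when single libraries were left out.

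The largest falls of the group were those of UTP3, UTP23 and UTP20. UTP3, which encodes the U3-associated protein also known as SAS10, stood at 29.2, 32.2 and 31.1 CPM with DMSO and 6.14, 24.8 and 13.7 CPM with MPM-1. Its MPM-1 libraries were spread widely, and the call was the weakest of these 3 (log2 fold change -1.05, standard error 0.37, adjusted p = 0.0341, edgeR). It was lost in DESeq2 and without each DMSO library or library 3 of MPM-1, with fold changes from -1.60 to -0.67 when single libraries were left out. UTP23, a factor of the early precursor, stood at 13.9, 13.3 and 13.2 CPM with DMSO and 5.05, 8.52 and 7.36 CPM with MPM-1. Here the DMSO libraries were close together and every MPM-1 library was lower (log2 fold change -0.95, standard error 0.20, adjusted p = 0.00259, edgeR). UTP20, a very large scaffold protein, stood at 9.01, 12.6 and 12.8 CPM with DMSO and 8.34, 7.54 and 7.15 CPM with MPM-1, with DMSO library 1 nearest to the MPM-1 values (log2 fold change -0.58, standard error 0.18, adjusted p = 0.0193, edgeR). Its call was lost without DMSO library 2 or 3 and without library 2 or 3 of MPM-1.

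The other lower genes were NOL6, NOP9, RRP7A, NOL11 and BYSL, with log2 fold changes from -0.56 to -0.31. The call of BYSL was lost without DMSO library 2 or 3 and without library 1 of MPM-1. Of the genes of the UTPA complex, UTP4 was higher, NOL11 was lower, and UTP15, HEATR1, WDR43 and WDR75 were not called. NOL11 stood at 58.1, 58.2 and 60.3 CPM with DMSO and 33.8, 49.9 and 42.5 CPM with MPM-1 and fell (log2 fold change -0.49, standard error 0.13, adjusted p = 0.00881, edgeR). The ratio of UTP4 to NOL11 in FPKM was 1.04, 1.21 and 1.21 with DMSO and 3.79, 2.68 and 2.95 with MPM-1, so the lowest MPM-1 ratio was above every DMSO ratio. NOL11, UTP15, HEATR1, WDR43 and WDR75 were named after their values were seen. UTP15 was not called (-0.28, 95% interval -0.63 to 0.06), nor was HEATR1, the largest subunit (0.20, adjusted p = 0.0661). WDR43 and WDR75 had log2 fold changes of 0.08 and -0.14 (adjusted p = 0.439 and 0.201, edgeR).

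Not called in this group were UTP15, NAT10, NOP14, RRP9, UTP14C, TSR1, RRP36, UTP18, UTP6 and UTP25. Their log2 fold changes ran from -0.28 to 0.33. NAT10, the acetyltransferase of the small subunit RNA, had an interval from -0.50 to 0.11, and RRP9, a protein of the U3 snoRNP, one from -0.21 to 0.16, and both were picked after their values were seen. UTP14C is a retrogene copy of UTP14A, with 93.9% identity over 2469 aligned bases, and 74.2% of its exonic bases lie on ALG11 on the same strand, so the reads of these genes could be split between them. Of the 38 small subunit genes of the pathway list, 7 were higher (18.4%) and 8 lower (21.1%), against 27.7% and 28.8% of all genes. RIOK3, a kinase of pre-40S particles, had the largest rise of the list, from 113 ± 22.4 to 357 ± 44.7 CPM (log2 fold change 1.66, standard error 0.14, adjusted p = 1.55e-05, edgeR). The largest falls were those of C1orf131, a component of the early precursor, from 25.8 ± 4.73 to 10.6 ± 1.45 CPM (log2 fold change -1.29, standard error 0.17, adjusted p = 0.000159, edgeR), and IMP3, which pairs U3 with the precursor, from 51.1 ± 2.91 to 22.0 ± 10.2 CPM (log2 fold change -1.22, standard error 0.28, adjusted p = 0.00497, edgeR).

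Among the genes of large subunit assembly, MRTO4 (ENSG00000053372, chromosome 1, 19251539 to 19260128), a placeholder for the ribosomal stalk protein, fell most. It stood at 66.9, 70.9 and 69.8 CPM with DMSO and 28.3, 39.1 and 32.5 CPM with MPM-1. The DMSO libraries were within a narrow range and all MPM-1 libraries were far below it (log2 fold change -1.06, standard error 0.11, adjusted p = 5.41e-05, edgeR). NOP16, an early nucleolar factor, stood at 46.9, 62.7 and 58.1 CPM with DMSO and 27.4, 33.8 and 33.1 CPM with MPM-1 and fell without overlap (log2 fold change -0.83, standard error 0.13, adjusted p = 0.000413, edgeR). RRS1, which helps to place the 5S particle, stood at 12.9, 15.8 and 15.1 CPM with DMSO and 6.04, 10.7 and 8.37 CPM with MPM-1, with library 1 of MPM-1 the lowest (log2 fold change -0.80, standard error 0.21, adjusted p = 0.00847, edgeR).

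NOP2, a methyltransferase of the large subunit RNA, stood at 72.3, 70.2 and 68.2 CPM with DMSO and 54.4, 21.0 and 49.2 CPM with MPM-1. Library 2 of MPM-1 was far below the other MPM-1 libraries (log2 fold change -0.76, standard error 0.27, adjusted p = 0.0368, edgeR), and the call was lost in DESeq2 and without each DMSO library, with fold changes from -0.98 to -0.41 when single libraries were left out. NOP2 shares 54.4% of its exonic bases with AC006064.6 on the same strand. RRP1, BOP1 and WDR12 completed the lower genes, with log2 fold changes of -0.66, -0.57 and -0.48.

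BOP1, WDR12 and PES1 encode the PeBoW complex, which is needed to mature the large subunit RNA, and they are described here after their values were seen. BOP1 stood at 60.9, 62.2 and 68.4 CPM with DMSO and 45.7, 41.6 and 41.8 CPM with MPM-1 and fell (log2 fold change -0.57, standard error 0.082, adjusted p = 0.000323, edgeR). WDR12 stood at 39.6, 49.2 and 46.9 CPM with DMSO and 25.8, 37.6 and 33.8 CPM with MPM-1 and fell in the main test (log2 fold change -0.48, standard error 0.14, adjusted p = 0.0154, edgeR), a call lost without DMSO library 2 (-0.42). PES1 stood at 71.5, 68.7 and 65.9 CPM with DMSO and 70.4, 80.0 and 78.6 CPM with MPM-1 and was not called (log2 fold change 0.15, standard error 0.080, adjusted p = 0.131, edgeR). The FPKM ratio of BOP1 to PES1 was 0.838, 0.884 and 1.01 with DMSO and 0.636, 0.509 and 0.508 with MPM-1, with every MPM-1 library below every DMSO library.

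The higher genes of this group were PPAN and NIP7. PPAN, an early large subunit factor, stood at 17.4, 14.1 and 15.8 CPM with DMSO and 22.7, 21.2 and 24.5 CPM with MPM-1 and rose (log2 fold change 0.53, standard error 0.12, adjusted p = 0.00424, edgeR). PPAN shares 56.0% of its exonic bases with the readthrough gene PPAN-P2RY11, which the table lists on its own and which was not called (log2 fold change -0.56, adjusted p = 0.644, edgeR). NIP7, which acts in precursor cutting, stood at 48.5, 56.4 and 53.7 CPM with DMSO and 59.8, 72.8 and 65.8 CPM with MPM-1 (log2 fold change 0.32, standard error 0.096, adjusted p = 0.0166, edgeR), and its call was lost for FPKM, with scaling by library size alone and without DMSO library 1. NOP53, which guides the exosome to the precursor and is among the 5 genes with the highest FPKM, was not called, at 409, 362 and 373 CPM with DMSO and 426, 421 and 422 CPM with MPM-1 (log2 fold change 0.15, standard error 0.072, adjusted p = 0.102, edgeR). The others not called, RRP15, RRP8, GNL3 (nucleostemin), NOL9, RRP1B and NOL12, had log2 fold changes from -0.46 to 0.11.

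In the pathway list, 17 of 49 large subunit genes were higher (34.7%) and 11 lower (22.4%), against 27.7% and 28.8% of all genes. Both genes of a late cytoplasmic step, in which the factor eIF6 leaves the subunit, rose by more than 2-fold. The GTPase gene EFL1 went from 23.8 ± 0.317 to 53.4 ± 5.36 CPM (log2 fold change 1.17, standard error 0.094, adjusted p = 9.97e-06, edgeR), and SBDS, its cofactor, from 106 ± 11.9 to 218 ± 14.8 CPM (log2 fold change 1.04, standard error 0.097, adjusted p = 2.33e-05, edgeR). EIF6 itself rose by less, from 216 ± 16.8 to 259 ± 13.4 CPM (log2 fold change 0.26, standard error 0.082, adjusted p = 0.0216, edgeR), and was named after its value was seen. The treatments did not overlap in EFL1, SBDS or EIF6. Over all 108 genes of the list, 26 were higher and 29 lower (24.1% and 26.9%), with a median log2 fold change of -0.067.

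**Figure D4:**
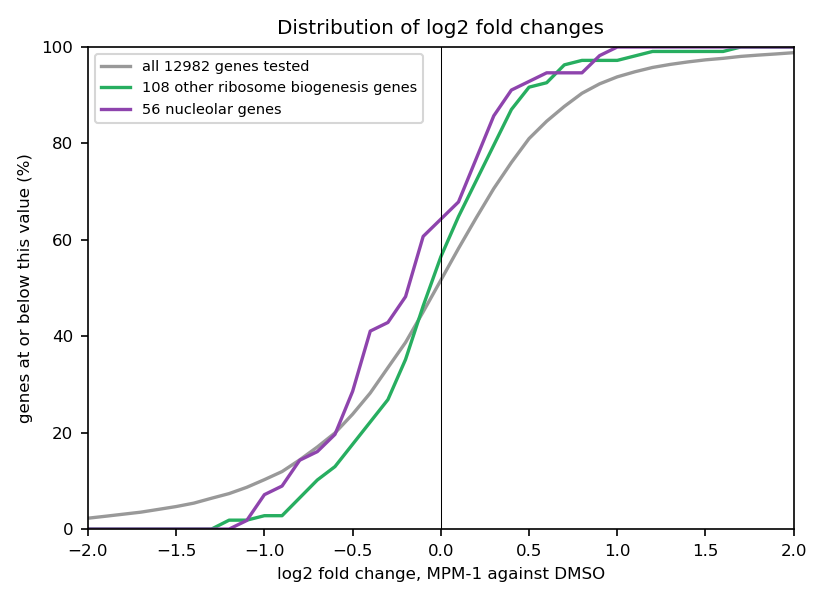
Share of genes (y axis, %) at or below each log2 fold change (x axis, MPM-1 against DMSO) for all 12982 genes, the 108 other ribosome biogenesis genes and the 56 nucleolar genes. At a log2 fold change of 0 the curves stand at 51.6%, 56.5% and 64.3%, and the 56 genes lie between -1.17 and 0.90.

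NPM1, NCL and NOL8 were the other nucleolar genes. NPM1 (ENSG00000181163, chromosome 5, 171387116 to 171411137), the abundant chaperone nucleophosmin, stood at 1355, 1371 and 1406 CPM with DMSO and 1423, 1507 and 1472 CPM with MPM-1. All MPM-1 libraries were higher, but by little, and the difference was not called (log2 fold change 0.09, standard error 0.060, adjusted p = 0.217, edgeR, 95% interval -0.04 to 0.22). With scaling by library size alone its fold change was -0.06, so its sign depends on the scaling. NPM1 has 45 named pseudogenes in GENCODE and none of them has a row in the table, so reads of such copies cannot be told apart here. NCL, nucleolin, stood at 288, 371 and 338 CPM with DMSO and 299, 291 and 292 CPM with MPM-1, with overlap between the treatments (log2 fold change -0.17, standard error 0.094, adjusted p = 0.141, edgeR). NOL8 stood at 19.1, 20.5 and 22.1 CPM with DMSO and 12.8, 18.7 and 12.9 CPM with MPM-1 and fell (log2 fold change -0.47, standard error 0.16, adjusted p = 0.0306, edgeR), a call lost without DMSO library 2 or 3 and without library 1 or 3 of MPM-1. NOL4L was not called (-0.25, adjusted p = 0.0933, edgeR). NCL and NOL4L were named after their values were seen.

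By level, the genes spanned a wide range of FPKM. NPM1 was the highest, with a mean of 908 FPKM with DMSO and 884 with MPM-1. Next with DMSO came FBL at 256, NOP53 at 255, NOP10 at 236 and POLR1D at 182 FPKM, and of these FBL alone was far lower with MPM-1, at 111 FPKM. The lowest were UTP20, at 1.30 and 0.779, and POLR1A, at 1.40 and 0.851. Over both treatments, 8 genes had a mean above 50 FPKM, 36 were between 5 and 50 and 12 were under 5. The FPKM of the 56 genes summed to 2753, 2895 and 2941 with DMSO and to 2449, 2642 and 2515 with MPM-1, lower in all MPM-1 libraries. Their CPM, the scale of the main test, summed to 4874, 5011 and 5019 with DMSO and to 4645, 4938 and 4812 with MPM-1, where the treatments overlapped, so the separation of the sums depends on the scaling. NPM1 took 31.7% ± 0.614 of the FPKM sum with DMSO and 34.9% ± 0.339 with MPM-1 (SD, n = 3). Library values varied little in most genes, with a median coefficient of variation of 6.54% with DMSO and 9.68% with MPM-1.

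**Figure D5:**
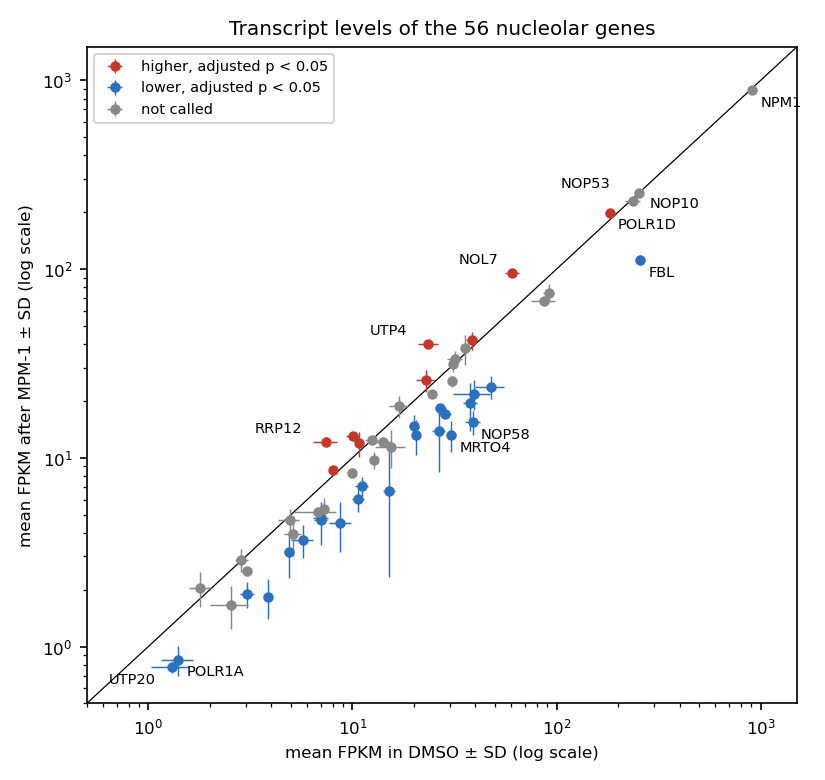
Mean FPKM ± SD of each of the 56 genes with DMSO (x axis, log scale) and with MPM-1 (y axis, log scale), 3 libraries each, colored by the call of the test. The line marks equal levels, and FBL, at 256 and 111 FPKM, lies farthest below it among the genes above 50 FPKM.

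The cytosolic ribosomal protein genes, whose products these factors assemble, were mostly higher in the main test. Of 78 in the table, 52 were higher and 2 lower after MPM-1, against 27.7% and 28.8% of all genes. Their median log2 fold change was 0.31 (0.16 with scaling by library size alone). With library size alone 37 were higher and 6 lower, against 19.9% and 37.5% of all genes. For FPKM 35 were higher and 5 lower with either pseudocount. Of the 24 nucleolar genes not called, 19 had a 95% interval within 0.5 of 0 on the log2 scale. The exceptions are UTP15, UTP6, UTP25, RRP15 and NOL4L, whose intervals reach farther. Reads could also be shared on opposite strands in NOP9, which has 32.4% of its exonic bases on CIDEB, TSR1 (20.7% on SRR), NIP7 (20.2% on COG8) and NOP14 (17.1% on NOP14-AS1), and on the same strand in NOL12 (22.0% on Z83844.1). UTP23, at a mean of 2.86 FPKM, has 9.86% of its exonic bases opposite RAD21, which had 61.5 FPKM and was itself lower (log2 fold change -0.59, adjusted p = 0.000110, edgeR), and 2.09% opposite EIF3H, at 98.0 FPKM. NOP16, at 35.6 FPKM, has 12.02% opposite ARL10 and 7.93% opposite HIGD2A, at 187 FPKM. Also opposite were the shares of RRP7A (15.9% on SERHL) and RRP36 (11.75% on AL136304.1), and RRS1 has 11.4% on AC009879.2 on the same strand. What such reads add to the values was not tested.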

How the data were processed

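SW480 cells were exposed for 24 h to MPM-1 or DMSO, and their RNA was sequenced as 6 libraries (3 of each), prepared with an mRNA kit and grouped here by the treatment in the sample labels. The authors deposited 1 table with a whole-number count of each gene in each library, not normalized, and with FPKM, which they scaled for length and library size. It also holds the log2 fold change and FDR (an adjusted p-value) of the authors' own comparison, deposited in 2 columns that were not used. The submitters' processing notes name HISAT2, DESeq2 and mm10, a mouse build, although the gene identifiers are human. The counter, the annotation, the strand setting and the filters are not given in the sources used here. Such choices decide how reads of overlapping genes and copies were assigned. The lowest total count of a gene over the 6 libraries was 115, so rarer transcripts were not analysed here.

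Counts were tested in R 4.3.3 with edgeR 4.0.16 (TMM scaling, quasi-likelihood test, two-sided, 6 libraries, no covariates), with Benjamini-Hochberg adjustment over all 12982 genes. The filter on low counts removed 0 genes. The 12982 genes include 855 rows labeled NewGene, which are part of the shares and medians given for all genes. Standard errors were derived from the log2 fold change and its F statistic, and intervals cover 95%. The test was tried on simulated data. Alternatives were DESeq2 1.42.0, its size factors, scaling by library size alone or without mitochondrially encoded genes, a mean of at least 50 counts, no filter, a block for the replicate number, leaving out 1 library at a time, and limma 3.58.1 on log2(FPKM + 1) and log2(FPKM + 0.1) where the mean reached 1 FPKM. A pseudocount of 1 in particular understates the fold changes of genes with low FPKM. With 3 libraries against 3, an exact permutation test of a single gene cannot go below 0.1. Libraries of one treatment differed by far more than sampling noise (chi-square per gene 15.4 to 33.2), and each was counted once.

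The 56 genes, their groups and the pathway list were chosen with earlier results of these data known. The pathway list has 111 names, of which 3 (CIRH1A, ENP1 and DIEXF) are older names of genes among the 56. By rule, the text names the genes past the stricter threshold, the 3 largest rises and falls called in each group, the 5 genes with the highest FPKM, those that could share reads with another gene (overlaps down to 9.86% of the exonic bases are given), and the 3 largest rises and falls past the stricter threshold in the pathway list. Others are marked as chosen after their values were seen or appear only in lists and ranges. Gene positions and exon overlaps came from GENCODE release 29 (GRCh38), in which all 56 genes were found, promoters from RefSeq (GRCh38.p14), and the identity of the UTP14 copies from blastn 2.17.0. Where RefSeq lists several starts for a gene, the first was used.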

Additional observations from a re-analysis of the deposited data

How the results depend on the processing

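Of the 32 calls, 19 held under every one of the 15 alternatives (4 higher and 15 lower genes), and no called gene changed direction. Scaling by library size alone shifted the median over all genes from -0.026 to -0.18 (log2 fold change) and that over the nucleolar genes to -0.34, with 5 higher and 31 lower. The difference between these medians was -0.16 under both scalings, since a new scaling shifts all genes by nearly the same amount. It was -0.20 on log2(FPKM + 1) and -0.23 on log2(FPKM + 0.1). With single libraries left out it ran from -0.19 to -0.10. For FPKM, 4 genes were higher with either pseudocount, and 28 were lower on log2(FPKM + 1) and 29 on log2(FPKM + 0.1). Of all genes in those fits, 20.5% and 20.4% were higher and 35.4% and 35.2% lower. The median of the nucleolar genes was -0.33 on log2(FPKM + 1) and -0.37 on log2(FPKM + 0.1), where all genes had -0.13 and -0.15. Of the 108 other ribosome biogenesis genes, 13 were higher and 45 lower with library size alone, against 19.9% and 37.5% of all genes. For FPKM, among those that reached the mean of 1, 13 were higher with either pseudocount. There 43 were lower on log2(FPKM + 1) and 40 on log2(FPKM + 0.1). With single libraries left out, the lower genes numbered 15 (without DMSO library 2) to 23, the higher ones 7 to 13, and the median ran from -0.22 to -0.13. With the replicate block, 8 genes were higher and 24 lower (median -0.17), since UTP14A was no longer called and RRP15 was. Same-numbered libraries did not deviate together (correlations 0.0569, 0.106 and -0.0922), so the numbers were not taken as pairs. Of the 24 genes not called, 15 were called under at least 1 alternative, RRP15 under 5. NPM1, NOP53, NOP10, NOL12 and UTP14C, none of them called, turned from above to below 0 with library size alone. The cause of these shifts was not tested.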
